A study of Mus musculus with 6 samples.

Results

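The transcripts of 10 heat shock genes were followed in liver: Hspb1, Hspa1a, Hspa1b, Hspa8, Hsp90aa1, Hsph1, Dnajb1, Hspd1, Hspe1 and Hsf1. The members were chosen by gene name, with the contrast between insulin and vehicle already known, so their differences between groups are given as a description and not as a test. All 10 were found among the 54532 genes of the count table, and all 10 were among the 13377 genes kept after the filter on low counts. The livers came from 6 male C57BL/6J mice, each giving 1 library. Feeding a high-fat diet (HFD) for 6 weeks from 8 weeks of age had made all 6 mice insulin resistant (IR), so both groups carried the diet, and chow-fed mice were not analysed here. After a 16 h fast, 3 mice received insulin at 0.75 units per kg body weight by intraperitoneal injection (IR insulin) and 3 received bovine serum albumin (BSA), the vehicle (IR vehicle), and the livers were studied 6 h later. The question was which liver transcripts insulin can change in mice already resistant to it. Levels are given as CPM, read counts per fixed library size after TMM scaling, which allows for differences in RNA composition.

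Heat shock proteins are molecular chaperones, which bind unfolded proteins and help them to fold, to avoid clumping or to be broken down. Small heat shock proteins hold unfolded chains, HSP70 proteins bind and release them in cycles driven by ATP together with J-domain partners and exchange factors, HSP90 acts late on kinases and receptors, and HSP60 with its lid HSP10 folds proteins inside mitochondria. The inducible members of these families are switched on by HSF1, a transcription factor that binds heat shock elements, which are alternating repeats of the letters GAA and TTC. Liver makes and secretes large amounts of protein and holds high levels of the constitutive chaperones.

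The upstream sequences of Hspb1 and Hspa1b are shown because these genes had the largest differences between the groups and because heat shock elements are the known route to their induction. Both runs cover the 250 bases before the RefSeq start site (build GRCm38.p6), chr5:135887669-135887918 on the plus strand for Hspb1 and chr17:34959239-34959488 on the minus strand for Hspa1b. Capitals mark matches to 2 neighbouring inverted units, GAANNTTC or TTCNNGAA, each of which reads the same on both strands.
Hspb1: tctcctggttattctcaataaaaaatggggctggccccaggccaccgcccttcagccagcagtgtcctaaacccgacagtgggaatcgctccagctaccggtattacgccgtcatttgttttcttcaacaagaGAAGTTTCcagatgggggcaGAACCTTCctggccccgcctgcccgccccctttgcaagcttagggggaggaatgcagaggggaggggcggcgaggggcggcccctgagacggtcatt
Hspa1b: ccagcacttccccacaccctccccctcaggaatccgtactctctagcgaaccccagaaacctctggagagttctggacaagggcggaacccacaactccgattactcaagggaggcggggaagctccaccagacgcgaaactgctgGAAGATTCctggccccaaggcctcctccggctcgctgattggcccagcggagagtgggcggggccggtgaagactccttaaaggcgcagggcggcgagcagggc
In Hspb1 the matches lay 117 to 110 and 97 to 90 bases before the start site, and in Hspa1b the match lay 104 to 97 bases before it. The Hspa1a window (chr17:34972157-34972406, minus strand) held the same match at the same place. Over the 250 bases it differed from the Hspa1b window at 3 positions, C44T, T47C and T249G, counted from 1 at the 5′ end with the Hspa1a base first.

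The mitochondrial pair Hspd1 and Hspe1 and the HSP110 gene Hsph1 are shown by 30 bases around their matches, chr1:55088053-55088082 on the plus strand for the shared region of Hspe1 and Hspd1, and chr5:149636351-149636380 on the minus strand for Hsph1.
Hspe1: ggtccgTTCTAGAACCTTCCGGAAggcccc
Hsph1: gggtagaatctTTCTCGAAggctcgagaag
The capitals in the Hspe1 run span 18 bases that hold 3 overlapping matches of 2 units and both 3-unit forms, TTCNNGAANNTTC and GAANNTTCNNGAA. The genes of this pair are read away from each other, so the same letters can stand upstream of both. They lie 89 to 72 bases before the Hspe1 start site and 144 to 127 bases before 1 of the start sites of Hspd1. The window before the other Hspd1 start site (chr1:55088244-55088493, minus strand) held no match, and the letters lie downstream of that site. The Hsph1 match lay 33 to 26 bases before 1 of its start sites and 54 to 47 bases before the other. Neither of the Dnajb1 windows held a match. The table held no window for Hspa8, Hsp90aa1 and Hsf1. Of the 7 members with a window, 6 held a 2-unit match in at least 1 window, against 14.5% of all 27025 gene symbols, and 2 held a 3-unit match, against 0.514%. These are not independent matches, since Hspe1 and Hspd1 hold the same letters, and the Hspa1a and Hspa1b windows are nearly the same. At least 2 matches of 2 units stood in 1.46% of all 32851 windows. These are matches of letters and were not tested for binding.

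**Figure D1:**
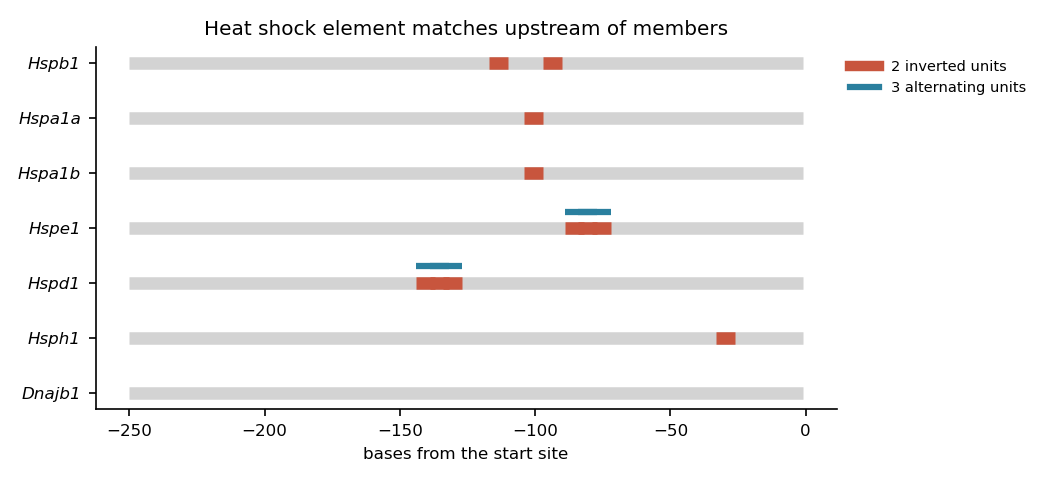
Positions of heat shock element letters in the 250 bases before the start site of 7 members (x axis, bases from the start site; grey bars, windows searched; red, matches of 2 inverted units; blue, matches of 3 alternating units). The Hspe1 and Hspd1 marks are the same letters read from opposite strands, and Dnajb1 holds none. Only the window with matches is drawn for Hspd1, and its other window held no match.

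In edgeR's quasi-likelihood test, 0 of 13377 genes (0.0%) passed an adjusted p of 0.05, 383 had an unadjusted p under 0.05 (DESeq2 and voom also gave 0 by adjusted p), and each of the 10 members had an adjusted p of at least 0.852. The study scored genes that moved by 0.35 or more on the log2 scale, up or down, at an unadjusted p under 0.05. By these criteria 3 members passed with higher and 0 with lower levels after insulin, where 2.86% of all genes passed (1.0% higher and 1.86% lower). Since the members were chosen with this contrast known, nothing is read from that count. The median log2 fold change was 0.24 over the members and −0.017 over all genes, and 7 members had positive and 3 negative values, where 48.6% of all genes were positive. The libraries held between 18449986 and 21827619 counts, and 66 or more reads stood behind every value of the members other than Hspa1a. Vehicle replicate 2 stood apart by a trend with GC content and vehicle replicate 3 by low levels of endoplasmic reticulum chaperones and of some members.

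Hspb1 encodes the small heat shock protein HSP27, also called HSP25 in mouse, which holds unfolded proteins and binds actin filaments. It lies on chromosome 5 (135887919 to 135889563, plus strand; coordinates of members are those of GENCODE M21 on GRCm38). Its levels were 29.98, 25.7 and 13.7 CPM in vehicle replicates 1, 2 and 3, and 90.2, 34.9 and 62.0 CPM in insulin replicates 1, 2 and 3. All 3 insulin values lay above all 3 vehicle values, and insulin replicate 2 was the closest to the vehicle group. The vehicle mean was 23.1 ± 8.41 CPM and the insulin mean 62.4 ± 27.7 CPM (SD, n = 3), a log2 fold change of 1.43 ± 0.42 (SE) or 2.70-fold. Leaving out vehicle replicate 2 gave 1.52, leaving out vehicle replicate 3 gave 1.16 and leaving out insulin replicate 1, the highest library, gave 1.07. With an offset for GC content it was 0.43 ± 0.62, and 1.37 ± 0.49 with the offset but without vehicle replicate 2. More RNA per cell and more cells of a type cannot be told apart in these bulk livers.

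Hspa1a and Hspa1b encode the same inducible HSP70 protein, which is scarce in unstressed cells, and they lie side by side on the minus strand of chromosome 17 (34969190 to 34972156 and 34956436 to 34959238). Hspa1b was at 18.3, 13.4 and 3.67 CPM in the vehicle libraries and at 43.6, 20.5 and 33.5 CPM in the insulin libraries. The groups did not overlap, although vehicle replicate 1 and insulin replicate 2 differed by little, and vehicle replicate 3 was 4.996-fold below vehicle replicate 1. The means were 11.8 ± 7.46 and 32.5 ± 11.6 CPM (SD, n = 3), with a log2 fold change of 1.46 ± 0.55 (SE), or 2.76-fold. Hspa1a was read far less often, with 17, 10 and 13 reads in the vehicle libraries and 43, 21 and 59 reads in the insulin libraries. These came to 0.899, 0.614 and 0.62 CPM against 1.94, 0.909 and 2.72 CPM, so that insulin replicate 2 lay just above vehicle replicate 1. The log2 fold change of Hspa1a was 1.37 ± 0.51 (SE).

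Reads of these neighbours can be exchanged, since 62.3% of the 50-base stretches of the longest Hspa1b transcript also occur in transcripts of Hspa1a. The summed level of both genes does not depend on how such reads were shared between them, if they were counted. Reads left out because they fit both genes would be missing from the sum as well. The sum was 19.2, 14.0 and 4.29 CPM in IR vehicle, against 45.5, 21.4 and 36.3 CPM in IR insulin, a log2 fold change of 1.46 ± 0.53 (SE). Per kilobase of transcript, Hspb1 and Hspa1b kept a similar ratio in 5 libraries, where Hspa1b stood at 0.16 to 0.203 of Hspb1, and the ratio was 0.0887 in vehicle replicate 3. With the GC offset the log2 fold changes were 0.79 ± 0.64 for Hspa1b and 0.84 ± 0.54 for Hspa1a, and without vehicle replicate 3 they were 1.03 ± 0.36 and 1.28 ± 0.59. Each of the 3 members that passed the study's criteria kept a positive sign in every alternative run for it, but with the GC offset 0 of the 3 met the criteria.

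Hspa8 (chromosome 9, 40800984 to 40810087, plus strand) encodes HSC70, the constitutive HSP70 of the cytosol, which also removes clathrin coats and carries proteins to lysosomes. Unlike Hspb1, Hspa1a and Hspa1b, it was lower with insulin. Its levels were 849.0, 1408.3 and 1179.1 CPM in the vehicle libraries and 799.6, 740.0 and 846.1 CPM in the insulin libraries. The groups did not overlap, but vehicle replicate 1 and insulin replicate 3 were nearly equal. The means were 1145.5 ± 281.2 and 795.2 ± 53.2 CPM (SD, n = 3), with a log2 fold change of −0.53 ± 0.27 (SE). Leaving out vehicle replicate 2 or 1 gave −0.35 ± 0.22 and −0.70 ± 0.24. Per kilobase, Hspa1b amounted to 0.0243, 0.0107 and 0.00351 of Hspa8 in the vehicle libraries and to 0.0614, 0.0312 and 0.0447 in the insulin libraries. With Hspb1, Hspa1a and Hspa1b, it made up 4 members without overlap between groups, 3 higher and 1 lower with insulin, where 12.3% of all genes did not overlap (6.25% higher and 6.04% lower).

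**Figure D2:**
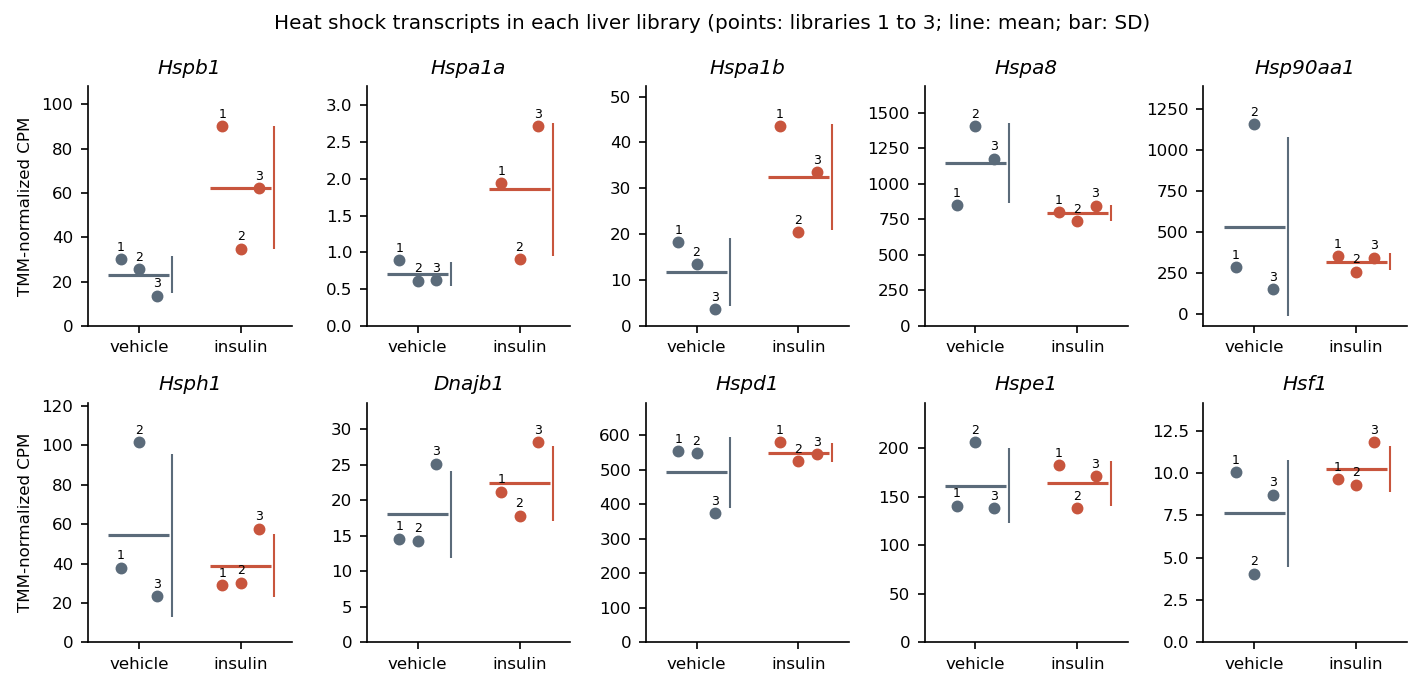
TMM-normalized CPM (y axis, a scale for each gene) of the 10 members in the vehicle and insulin libraries, each point a library labelled with its replicate number, with the mean as a line and the SD as a bar beside it. Hspb1, Hspa1a and Hspa1b are higher in all 3 insulin libraries, Hspa8 is lower in all 3, and vehicle replicate 2 is far above the rest for Hsp90aa1 and Hsph1.

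Hsp90aa1 (chromosome 12, 110690605 to 110702728, minus strand) encodes the stress-inducible HSP90 of the cytosol, HSP90α. Its levels were 287.3, 1160.3 and 150.9 CPM in the vehicle libraries and 354.6, 258.9 and 343.1 CPM in the insulin libraries. The vehicle group held both the highest and the lowest of the 6 values, which differed 7.69-fold, whereas the insulin values differed 1.37-fold. The log2 fold change was −0.74 ± 0.67 (SE). It turned to 0.54 ± 0.30 without vehicle replicate 2 and was 0.19 ± 0.33 in limma's voom fit with sample quality weights, which gave that library a weight of 0.122. Its constitutive partner Hsp90ab1, which encodes HSP90β, was at 542.5, 796.8 and 648.7 CPM in IR vehicle, and at 681.2, 522.8 and 772.2 CPM in IR insulin, with overlapping groups and a log2 fold change of −0.0086 ± 0.27 (SE). Per kilobase, the ratio of Hsp90aa1 to Hsp90ab1 was 0.407, 1.12 and 0.179 in the vehicle libraries and 0.341 to 0.4 in the insulin libraries. The inducible gene thus exceeded the constitutive one in vehicle replicate 2 alone, the library with the trend in GC content. Hsp90aa1 has 43.7% GC and Hsp90ab1 51.0%. In that library genes near 44.1% GC had a median deviation of 0.58 in log2 CPM from the other libraries. For genes near 50.7% and 51.7% GC it was −0.061 and −0.25. What part of the ratio belongs to the trend was not tested.

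Hsph1 (chromosome 5, 149614287 to 149636376, minus strand) encodes HSP110, which resets HSP70 by nucleotide exchange and helps to dissolve aggregates. The vehicle levels were 37.9, 101.4 and 23.6 CPM and the insulin levels 29.0, 30.3 and 57.7 CPM. The highest value was again that of vehicle replicate 2 and the lowest that of vehicle replicate 3, and the groups overlapped. The log2 fold change of −0.48 ± 0.54 (SE) turned to 0.34 ± 0.35 without vehicle replicate 2. Dnajb1 (chromosome 8, 83608193 to 83612653, plus strand) encodes HSP40, the J-domain partner that passes clients to HSP70. It was at 14.6, 14.3 and 25.1 CPM in IR vehicle, and at 21.2, 17.8 and 28.1 CPM in IR insulin, overlapping, with a log2 fold change of 0.31 ± 0.31 (SE), or 0.63 ± 0.27 without vehicle replicate 3. Vehicle replicate 3, the lowest library for Hspa1b, was the second highest for Dnajb1.

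Hspd1 and Hspe1 encode HSP60 and HSP10, the barrel and the lid of the mitochondrial chaperonin. They lie head to head on chromosome 1 (55077835 to 55088243, minus strand, and 55088132 to 55091307, plus strand), and their annotated ends overlap by 112 bases. Hspd1 was at 554.8, 548.0 and 374.3 CPM in IR vehicle, and at 579.0, 525.2 and 545.5 CPM in IR insulin. Apart from the low value of vehicle replicate 3, its levels lay within a narrow band, and the log2 fold change was 0.16 ± 0.25 (SE). Hspe1 was at 140.7, 205.8 and 138.0 CPM in IR vehicle, and at 182.4, 138.0 and 171.1 CPM in IR insulin, with overlapping groups and a log2 fold change of 0.021 ± 0.25 (SE). Per kilobase, the ratio of Hspd1 to Hspe1 lay between 1.06 and 1.57 over the 6 libraries. Both log2 fold changes were smaller than their SEs and were not resolved with 3 mice a group. A change above its SE was not thereby resolved, since 0 of 13377 genes passed an adjusted p of 0.05 (edgeR).

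Hsf1 (chromosome 15, 76477422 to 76501913, plus strand) encodes the heat shock factor itself, whose activity is set mainly by its release from chaperones and by phosphorylation of the protein. It was at 10.05, 4.05 and 8.73 CPM in IR vehicle, and at 9.64, 9.31 and 11.8 CPM in IR insulin. Vehicle replicate 2 was the low value, at 0.421 of the median of the other 5 libraries, and the remaining 5 values were close to each other. The log2 fold change of 0.43 ± 0.36 (SE) was 0.13 ± 0.19 without vehicle replicate 2.

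Levels of different genes were compared per kilobase of the longest transcript. In this order of mean CPM per kilobase, the constitutive chaperones came first, with Hspa8 at 307.3, Hspd1 at 215.1 and Hspe1 at 168.8. Hsp90aa1 followed at 129.8 and Hspb1 at 46.0. Then came Hsph1 at 9.79, Hspa1b at 7.91 and Dnajb1 at 6.74, with Hsf1 at 2.85 and Hspa1a at 0.433 at the low end. The ranges over the 6 libraries overlapped between every pair of neighbours in this order except Dnajb1 with Hsf1 and Hsf1 with Hspa1a. Hsp90aa1 spanned the widest range in CPM per kilobase among the abundant members, from 46.0 to 353.6. Together, the members took 3481.9 CPM in vehicle replicate 2 against 1775.8 to 2111.1 CPM elsewhere.

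The members did not move as 1 block from library to library. In vehicle replicate 2, Hsp90aa1 stood at 4.04, Hsph1 at 3.35, Hspa8 at 1.66 and Hspe1 at 1.46 times the median of the other 5 libraries, while Hspb1, Dnajb1, Hspa1a and Hspa1b stood at 0.735, 0.676, 0.675 and 0.652 times. This library was also the one whose counts followed GC content, by −1.13 on the log2 scale for every 10 percentage points of GC, against −0.0637 to 0.188 elsewhere. The members sit on both sides of that trend. Hspb1 has 61.7% GC in its longest transcript, Hspa1a 58.9% and Hspa1b 58.1%, whereas Hsp90aa1 has 43.7%, Hspe1 45.5%, Hspa8 45.9%, Hspd1 46.8% and Hsph1 47.3%. The deviation of Hsp90aa1 from the median of the other libraries was 2.01 in log2 CPM, against a median of 0.58 for genes of like GC content, and that of Hsph1 was 1.74 against 0.31. Hspb1 deviated by −0.44, against −1.76 for genes of like GC content, and Hspa1b by −0.61 against −1.19. The low values of these 2 members were thus smaller in size than the median of their GC class, and the high values of Hsp90aa1 and Hsph1 were larger. Hsf1 (53.4% GC) went the other way, deviating by −1.23 against −0.52, and Dnajb1 (52.7% GC) deviated by −0.56 against −0.43. Hspd1, though low in GC, was not raised, deviating by 0.0067 against 0.31. What part of each deviation belongs to the trend was not tested.

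In vehicle replicate 3 the trend with GC content was 0.139, within the range of the libraries other than vehicle replicate 2, and 5 of the 10 members had their lowest value there, where 23.8% of all genes did. Hspa1b deviated by −2.45, Hspb1 by −1.34, Hsp90aa1 by −1.18, Hsph1 by −0.68 and Hspd1 by −0.55 in log2 CPM. Hspa8 and Dnajb1 deviated by 0.48 and 0.49 in the opposite direction. The chaperones of the endoplasmic reticulum, which answer to a different stress pathway, had their lowest value in vehicle replicate 3 for 15 of 16 genes. In the other lists described below, 27 of 110 genes were lowest and 26 highest there, near the shares of all genes (23.8% and 23.4%). Hspa5, which encodes the HSP70 of that compartment, was at 4238.2, 6546.0 and 806.7 CPM in IR vehicle, and at 3040.7 to 3753.7 CPM in IR insulin.

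**Figure D3:**
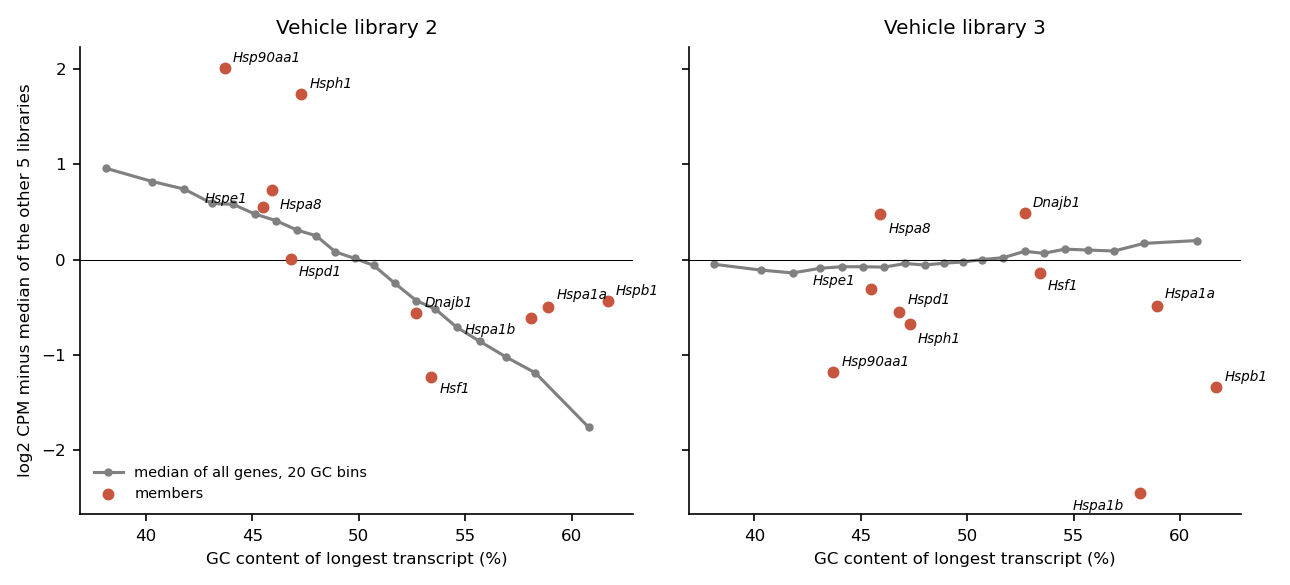
Deviation of each member in vehicle libraries 2 and 3 (y axis, difference in log2 CPM from the other 5 libraries' median) against the GC content of its longest transcript (x axis, %); the grey line is the median of all genes in 20 bins of GC content. In vehicle replicate 2 the line falls from 0.96 to −1.76, with Hsp90aa1 and Hsph1 well above it, and in vehicle replicate 3 the line lies between −0.14 and 0.20, with Hspa1b, Hspb1 and Hsp90aa1 below it.

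Markers of cell types were summed in each library. The 8 hepatocyte markers, which include albumin, were all detected, as the liver label says. They summed to 159894.8 CPM in vehicle replicate 2 and 111621.1 CPM in vehicle replicate 3, against 57199.6 to 70833.1 CPM elsewhere. Most of each sum was Alb, at 138554.2 CPM in vehicle replicate 2 and 72890.9 CPM in vehicle replicate 3. Alb, Ttr and Serpina1a were highest in vehicle replicate 2, but Apoa1 and Tat were lowest there, at 3901.0 and 714.0 CPM. Apoa1, Cps1, Pck1, Tat and Cyp3a11 were highest in vehicle replicate 3. Of the 4 adipocyte markers, Lep was at 0 in all libraries and Adipoq and Plin1 reached at most 0.0477 and 0.0866 CPM. The remaining one, Cfd, which encodes the complement protease adipsin, was at 63.5, 26.6 and 0.143 CPM in IR vehicle, and at 153.6, 96.5 and 25.0 CPM in IR insulin. This 1 gene was lowest in vehicle replicate 3 and highest in insulin replicate 1, as were Hspb1 and Hspa1b, while the defining markers of adipocytes were at or near 0. The 6 neutrophil markers summed to 3.72 CPM in vehicle replicate 3 against 27.4 to 72.9 CPM elsewhere, mostly from S100a8 and S100a9, with Mpo at most at 0.0866 CPM. The 6 Kupffer cell markers summed to 483.5 CPM in insulin replicate 1, against 223.5 to 324.5 CPM elsewhere. Of these, Cd5l, Marco and Adgre1 were highest in that library, whereas Clec4f and Vsig4 were highest in vehicle replicate 3 and Timd4 in vehicle replicate 2. The 5 markers of erythroid cells and the 5 of B cells were highest in vehicle replicate 2, at 1587.3 and 40.3 CPM against 311.5 to 626.3 and 2.86 to 10.04 CPM. The B cell sum there came mostly from Ighm and Ms4a1, with Cd79a at 0. Markers of sinusoidal and vascular endothelium (8 genes, 149.5 to 281.7 CPM), stellate cells (7 genes, 130.4 to 241.4 CPM) and bile duct (5 genes, 19.8 to 50.8 CPM) overlapped between the groups. Smooth muscle markers (4 genes) summed to at most 2.53 CPM, and skeletal muscle markers (3 of 5 detected) to at most 0.646 CPM, with Acta1 and Tnnt3 at 0. The part of these cells in the values of the members was not tested.

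**Figure D4:**
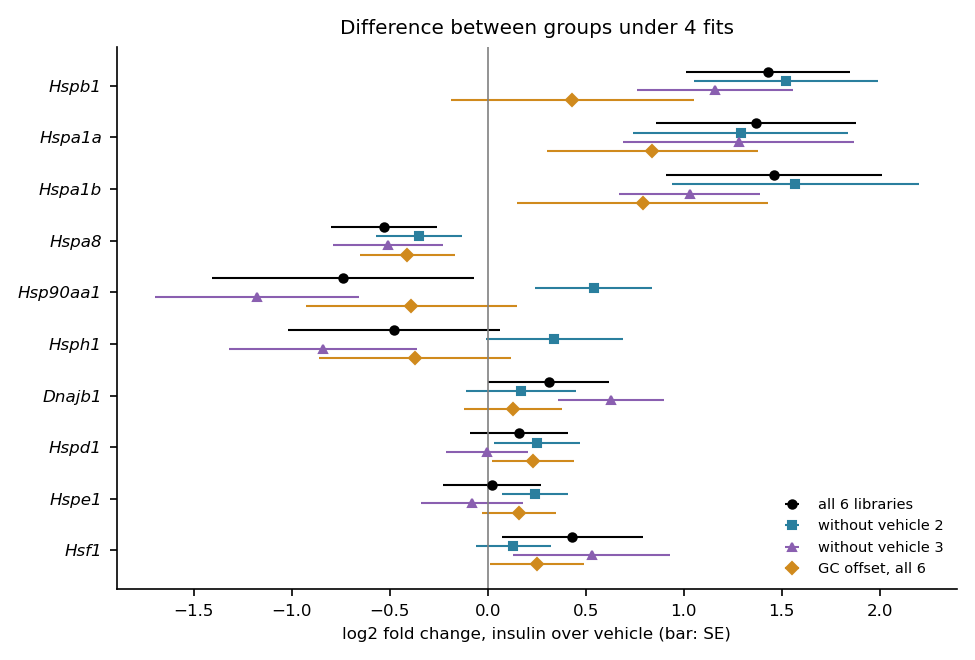
Log2 fold change of insulin over vehicle (x axis; bars, SE) of each member in 4 fits: all 6 libraries, vehicle replicate 2 left out, vehicle replicate 3 left out, and an offset for GC content added. Hsp90aa1 and Hsph1 change sign without vehicle replicate 2, and Hspb1 falls from 1.43 to 0.43 with the GC offset.

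Beyond the members, 126 of 133 listed genes of the same machinery passed the filter. By the criteria of the study, 2 of the 126 were higher and 0 lower with insulin, and 68 had positive and 58 negative log2 fold changes, with a median of 0.061. None had an adjusted p under 0.05, and each named below was at 0.852 or above (edgeR). The same criteria passed 2.86% of all genes.

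Of the other HSP70, HSP110 and small HSP genes, 11 of 16 were tested and 0 passed in either direction (median log2 fold change −0.045). Hspa13, a microsomal HSP70 relative, had the smallest p and was at 96.3, 251.1 and 31.7 CPM in IR vehicle, and at 59.0 to 92.0 CPM in IR insulin. Its log2 fold change of −0.76 ± 0.63 (SE, unadjusted p 0.264) turned to 0.23 without vehicle replicate 2. Hspa13 has 39.8% GC, and genes near 40.3% GC had a median deviation of 0.82 in log2 CPM in that library. Hspa12a (−0.50 ± 0.43) and the HSP110 relative Hspa4 (−0.25 ± 0.27) had overlapping groups. The small HSP gene Hspb8 was abundant in these livers, at 230.0 to 337.9 CPM with vehicle and 201.9 to 269.1 CPM with insulin. Hspb8 was named after its values were seen, for comparison with Hspb1, and its log2 fold change was −0.18 ± 0.25 (SE).

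Among 22 J-domain partners and exchange factors of HSP70, 1 was higher and 0 lower (median −0.15). Dnajb2, a J-domain protein that guides ubiquitinated clients to the proteasome, was at 46.8, 25.2 and 29.0 CPM in IR vehicle, and at 51.8, 50.5 and 64.7 CPM in IR insulin. The groups did not overlap, and the log2 fold change was 0.72 ± 0.28 (SE, unadjusted p 0.0348). It was 0.28 ± 0.26 with the GC offset (unadjusted p 0.318), and the criteria were no longer met when vehicle replicate 2 or 3 or any of the insulin replicates was left out. Bag3, an HSP70 exchange factor that feeds selective autophagy and is itself a target of HSF1, was at 57.8, 13.9 and 30.9 CPM in IR vehicle, and at 52.9 to 64.6 CPM in IR insulin, with a log2 fold change of 0.77 ± 0.46. Leaving out vehicle replicate 1 gave 1.38 and leaving out vehicle replicate 2 gave 0.40 for Bag3. Dnaja4 was low, at 1.14 to 1.80 CPM with vehicle and 1.90 to 2.84 CPM with insulin, and did not overlap (0.75 ± 0.37, unadjusted p 0.0782).

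HSP90 and its cochaperones held 0 genes past the criteria among 18 (median 0.13). Ptges3, which encodes the cochaperone p23, shared the high value of Hsp90aa1 in vehicle replicate 2, with 271.6 CPM against 78.3 to 89.1 CPM elsewhere (log2 fold change −0.87 ± 0.45, or −0.091 ± 0.14 when that library was left out). Unlike Hsp90aa1, it was not low in vehicle replicate 3, at 84.7 CPM. Ahsa1, the activator of the HSP90 ATPase, was higher in all 3 insulin libraries, at 78.0 to 112.1 CPM against 40.5 to 75.8 CPM, and its log2 fold change was 0.53 ± 0.30. Fkbp5, a cochaperone of steroid receptors induced by glucocorticoids, was at −0.47 ± 0.25. Among 17 mitochondrial chaperones and proteases 0 passed (median 0.13), with Yme1l1 at −0.75 ± 0.48, Htra2 at 0.84 ± 0.60 and Dnajc11 at 0.31 ± 0.23. Yme1l1, a protease of the inner membrane, was at 430.1 CPM in vehicle replicate 2 against 102.4 to 166.1 CPM elsewhere, and leaving that library out gave 0.043 for Yme1l1 and 0.36 for Htra2. The cytosolic chaperonin and prefoldin list held 15 genes, 0 past the criteria and 11 negative (median −0.18). The highest value fell in vehicle replicate 2 for 10 of its 15 genes and the lowest for 4, where the shares of all genes were 35.8% and 37.4%. Its subunit genes Cct4 and Tcp1 were at 262.5 and 330.0 CPM in that library, against 84.2 to 107.1 and 106.8 to 126.4 CPM elsewhere, and their log2 fold changes of −0.80 and −0.75 became −0.14 and −0.093 when it was left out. That of the prefoldin gene Vbp1 went from −0.53 ± 0.31 to −0.15 ± 0.15.

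**Figure D5:**
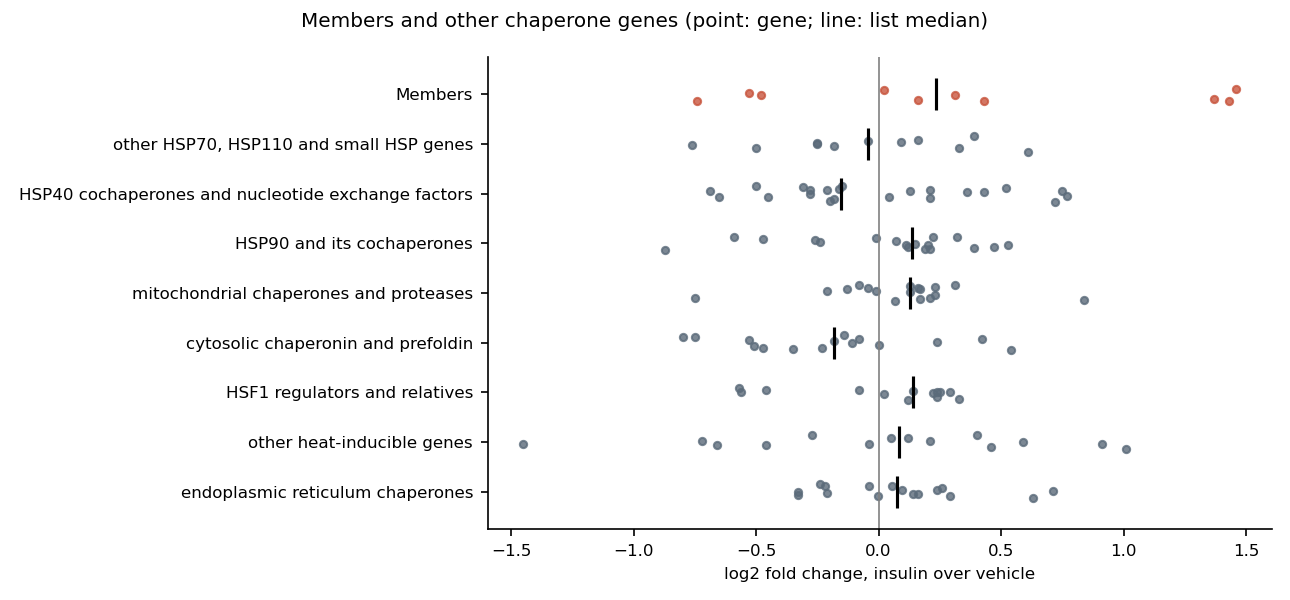
Log2 fold change of insulin over vehicle (x axis) of the members and of the genes of 8 other lists (points, genes; black lines, medians). The median of the members is 0.24, and the medians of the other lists lie between −0.18 and 0.14. Single genes run from −0.74 to 1.46 among the members and from −1.45 to 1.01 in the other lists.

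Regulators and relatives of HSF1 gave 0 genes past the criteria among 13 tested of 15 (median 0.14). Sirt1, a deacetylase that prolongs binding of HSF1 to DNA, was at −0.57 ± 0.34 and the sister factor Hsf2 at −0.56 ± 0.38, which became −0.19 and 0.0069 when vehicle replicate 2 was left out. Sirt1 and Hsf2 have 44.0% and 36.2% GC, and genes near 44.1% and 38.1% GC had median deviations of 0.58 and 0.96 in that library. Among 14 other heat-inducible genes, 1 was higher and 0 lower (median 0.085). This was Ier5, an immediate early gene whose product promotes dephosphorylation of HSF1. Ier5 was at 7.09, 5.22 and 3.62 CPM in the vehicle libraries and at 12.1, 11.1 and 8.90 CPM in the insulin libraries. Its groups did not overlap, and the log2 fold change was 1.01 ± 0.31 (SE, unadjusted p 0.0123, adjusted p 0.852, edgeR). Unlike the values of Hspb1 and Hspa1b, it moved little with the GC offset, to 0.83 ± 0.30 (unadjusted p 0.025), and it no longer met the criteria without insulin replicate 1 (unadjusted p 0.0501). Dusp1, a phosphatase of stress kinases, was at 117.5 CPM in vehicle replicate 3 against 15.8 to 22.3 CPM elsewhere, and its log2 fold change went from −1.45 ± 0.72 to 0.073 ± 0.25 without that library. Zfand2a, which encodes the arsenite- and heat-inducible proteasome adaptor AIRAP, was at 0.59 ± 0.30. Endoplasmic reticulum chaperones gave 0 of 16 past the criteria (median 0.075), led by Manf at 0.71 ± 0.50, Sdf2l1 at 0.63 ± 0.57 and Canx at −0.33 ± 0.30. With vehicle replicate 3 left out the median of this list was −0.32, Manf was at 0.32 and Sdf2l1 at 0.17, and with vehicle replicate 1 left out Manf was at 1.44. With vehicle replicate 2 left out the median was 0.31 and Canx was at −0.0097.

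Several members have near-identical copies in the genome, and how reads that fit more than 1 place were counted was not given in the sources used here. The share of 50-base stretches of the longest transcript that occurs in transcripts of other genes was 58.5% for Hsp90aa1, 52.7% for Hspa8, 51.6% for Hspb1 and 44.8% for Hspd1, mostly in processed pseudogenes. It was 8.2% for Hspe1, 0.441% for Dnajb1 and 0 for Hsph1 and Hsf1. Few reads were counted for those copies. Over all libraries, Hsp25-ps1 held 20 reads, or 0.368% of those of Hspb1, Gm12346 held 561, or 1.15% of those of Hsp90aa1, and Hspd1-ps3 held 1581, or 2.47% of those of Hspd1. Gm12346 peaked with Hsp90aa1 in vehicle replicate 2, at 169 reads against 36 to 99 in the other libraries. Reads in the 112 bases shared by Hspd1 and Hspe1 cannot be assigned without strand.

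Genes were ranked by likeness to the profile of Hspb1, and to a mean profile of the members named below, over the 6 libraries. They came from 7415 genes with a mean of at least 10 CPM. The measure was the root mean square difference of log2 CPM centred on each gene's mean. Closest to Hspb1 were Apoa4 (0.297), Tbx3 (0.402), Tlr12 (0.407), Lamb3 (0.409) and Itgb2 (0.423), where the profile of Hspb1 itself has a root mean square of 0.874. Apoa4, which encodes an apolipoprotein of chylomicrons and HDL, was at 257.6, 132.7 and 128.4 CPM in IR vehicle, and at 533.8, 269.5 and 414.2 CPM in IR insulin. Like Hspb1, it was highest in insulin replicate 1 and lowest of the insulin libraries in replicate 2, without overlap between groups. Closest to the mean profile of Hspa1a, Hspa1b, Hsph1, Dnajb1 and Hsp90aa1 were Myh10 (0.183), Tardbp (0.193), Lamb3 (0.199), Itgal (0.219) and Bbx (0.22). That flatter mean profile has a root mean square of 0.505. These members moved apart, so their mean is not the profile of any single one. In vehicle replicate 2, Hsp90aa1 and Hsph1 deviated by 2.01 and 1.74 in log2 CPM, and Hspa1b, Dnajb1 and Hspa1a by −0.61, −0.56 and −0.5. Tardbp, which encodes the RNA-binding protein TDP-43, was at 91.4, 134.4 and 50.7 CPM in IR vehicle, and at 105.4, 80.7 and 115.0 CPM in IR insulin. These profiles rest on 6 libraries and describe likeness only.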

How the data were processed

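Liver RNA from 6 IR mice, 3 given insulin and 3 the BSA vehicle, was sequenced as 1 library per mouse, and groups and replicate numbers came from the sample labels. The deposited file held whole-number read counts per gene, left by the authors without normalization or pooling. According to the study's methods and the submitters' processing notes, libraries were made with the NEBNext Ultra RNA kit, run on an Illumina HiSeq and aligned with Bowtie2 2.2.3 to mm10. The counting program, annotation and use of strand are not given in the sources used here. Bowtie2 does not splice, so reads across exon junctions can be lost.

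Counts were tested with edgeR 4.0.16 (glmQLFit and glmQLFTest, R 4.3.3), TMM, filterByExpr (minimum count 10, minimum total 15), no covariate, and Benjamini-Hochberg adjustment over 13377 genes. SEs came from the F statistic. The biological coefficient of variation was 0.357. The script was tested on simulated counts, which had no trend with GC content and less spread between libraries than these data. The authors had used DESeq2. DESeq2 1.42.0 and limma 3.58.1 (voom with quality weights) were alternatives, with other size factors, no filter, a replicate block, an offset for GC content (loess, span 0.5, for 13367 genes) and leaving out each library. The GC offset without vehicle replicate 2 was chosen after seeing the data. Same-numbered samples did not deviate together (correlations −0.039, 0.0688 and 0.0174).

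Of the genes in the table, 99.93% matched GENCODE M21 by identifier. Promoters came from RefSeq (GRCm38.p6) by symbol, for 7 members. The members and lists were chosen with earlier results of these data known. Named are all members, the 3 genes of each list with the smallest p and any further with p under 0.05, and the 5 genes most like each of 2 profiles. Hsp90ab1, Hspa5 and Hspb8 were named in addition, after their values were seen. One gene that the rule names is not reported here.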

Additional observations from a re-analysis of the deposited data

How the results depend on the processing

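In every alternative the number of genes, and of members, below an adjusted p of 0.05 was 0. Genes past the study's criteria numbered 383, 742 with no filter on low counts, 213 with voom and quality weights, and between 99 (without insulin replicate 1) and 1349 (without vehicle replicate 1) when 1 library was left out. Members past them numbered 3, 0 with the GC offset, 0 with the GC offset and replicate block, and between 1 and 4 with 1 library left out (4, with Hspa8, without vehicle replicate 1). Hspb1 alone remained without insulin replicate 1 or 3, and with the GC offset without vehicle replicate 2. Genes of the wider lists numbered 2, 5 with no filter, 1 with voom, 4 with the GC offset alone, 4 with the replicate block added to it and 4 with it and without vehicle replicate 2, and between 0 and 12 with 1 library left out (12 without vehicle replicate 1, 11 without vehicle replicate 3). With the replicate block alone the members numbered 2 and all genes 321, and the unadjusted p of Hspa1a was 0.0527 in edgeR. The numbers did not pair the samples.

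With 1 library left out, log2 fold changes ran from −1.18 to 0.54 for Hsp90aa1, −0.86 to 0.34 for Hsph1, −1.22 to 0.23 for Hspa13, −0.43 to 0.037 for Hspa4, −1.11 to 0.043 for Yme1l1 and −0.83 to 0.0069 for Hsf2, positive only without vehicle replicate 2. With the GC offset added to that fit they were 0.57, 0.33, 0.29, 0.026, 0.10 and 0.081. Canx turned there to 0.0043. Hsp90aa1 also turned with voom (0.19). The ranges were −0.0044 to 0.26 for Hspd1, −1.86 to 0.073 for Dusp1, −0.17 to 0.50 for Tardbp and −0.035 to 0.48 for Bbx, each turning without vehicle replicate 3, and −0.081 to 0.24 for Hspe1, negative when vehicle replicate 1 (−0.067) or 3 (−0.081) or insulin replicate 1 (−0.058) was left out. The cause was not tested. Hspb1, Hspa1a, Hspa1b, Hspa8, Dnajb1 and Hsf1 kept their sign in all alternatives. Scaling by library totals alone moved the median of all genes to 0.16. Depth was lowest for Hspa1a, with 10 to 59 reads a library.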
